A study of Homo sapiens with 6 samples.

Results

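SMARCA4 peaks at CpG-poor promoters of protein-coding genes in K562 cells numbered 1939 of the 28265 in the deposited list, or 6.86% (95% Wilson interval 6.57 to 7.16%). A member peak overlapped the 1 kb on either side of the 5' end of a coding gene with a CpG-poor promoter, and came within 1 kb of no CpG-rich coding gene's 5' end. A promoter was taken as the 500 bp on either side of the 5' end. It counted as CpG-rich when its GC content was at least 55% and its ratio of observed to expected CpG was at least 0.6, so a CpG-poor promoter fell short of at least 1 of these thresholds. The rule uses position and base composition alone.

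K562 is an established chronic myeloid leukaemia line with erythroid and megakaryocytic features. SMARCA4 was mapped by ChIP-seq, which sequences the DNA recovered with an antibody after crosslinking, in 3 ChIP libraries and 3 input libraries (chromatin without the antibody step). Crosslinking used 2 mM disuccinimidyl glutarate (30 min) before 1% formaldehyde (10 min), and fragments were 150 to 400 bp long. One description of the study speaks of biological replicates and the other of technical ones, and the authors merged the libraries into 1 list of regions seen in at least 2 of 3, which has no heights, read numbers or replicate values, so neither depth nor spread can be read from it.

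SMARCA4 is the ATPase of the SWI/SNF remodelling complexes, which slide and evict nucleosomes. Promoters of widely used genes mostly lie in CpG islands, where DNA is unmethylated and nucleosomes are less stable. CpG-poor promoters belong more often to genes of particular tissues, and they are opened more by bound activators, such as GATA1 and KLF1 in red cell precursors.

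The promoters of 5 blood genes are shown for their GATA motifs. Their CpG ratios are 0.178 to 0.294. In each, a member peak covered the 5' end and the GATA motif (AGATAA or AGATAG or TGATAA or TGATAG, either strand) lay in the 120 bases upstream. They are printed from hg19 on the gene's strand, and capitals mark the motif. EPB42 (chr15:43513217-43513336) encodes protein 4.2 of the red cell membrane skeleton, and RHAG (chr6:49604553-49604672) encodes the Rh-associated glycoprotein. KEL (chr7:142659451-142659570) and ART4 (chr12:14996461-14996580) encode the Kell and Dombrock blood group proteins, and KLF1 (chr19:12998016-12998135) encodes the erythroid activator of globin genes.
EPB42: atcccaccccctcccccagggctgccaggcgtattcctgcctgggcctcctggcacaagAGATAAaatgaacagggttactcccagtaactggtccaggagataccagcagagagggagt
RHAG: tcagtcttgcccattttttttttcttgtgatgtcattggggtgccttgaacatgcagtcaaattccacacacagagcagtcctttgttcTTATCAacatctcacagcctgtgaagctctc
KEL: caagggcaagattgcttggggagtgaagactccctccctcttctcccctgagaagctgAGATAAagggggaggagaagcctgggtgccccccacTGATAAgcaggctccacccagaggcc
ART4: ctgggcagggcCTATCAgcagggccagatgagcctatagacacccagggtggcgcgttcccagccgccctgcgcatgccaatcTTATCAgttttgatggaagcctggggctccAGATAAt
KLF1: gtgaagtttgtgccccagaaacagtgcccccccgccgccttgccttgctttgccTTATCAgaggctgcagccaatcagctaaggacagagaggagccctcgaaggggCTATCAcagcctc

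These promoters were picked for the motif, so its presence in them is no result. The 120 bases upstream held it in 131 (13.5%, 11.5 to 15.8%) of the 971 CpG-poor promoters whose 5' end a member peak covered. The share was 14.8% among all 9682 CpG-poor promoters and 8.84% among all 20144 coding promoters. ART4 held 3 copies, KEL and KLF1 held 2 each, and the other 2 promoters held 1.

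Most CpG-poor genes had no SMARCA4 peak near their start. Any peak lay within 1 kb of 2036 of the 9682 CpG-poor genes (21.0%, 20.2 to 21.9%). The same count was 6490 of 10462 for CpG-rich genes (62.0%), and 42.3% of all coding genes had a peak. The odds ratio of CpG-poor against CpG-rich genes was 0.163 (Woolf 95% interval 0.153 to 0.174), and the p of the two-sided Fisher's exact test over genes was below what double precision holds (log10 of the one-sided tail -783). A member peak in the strict sense, away from every CpG-rich coding 5' end, stood at 1739 CpG-poor genes (18.0%). Of these genes, 1403 had 1 member peak, 281 had 2 and 55 had 3 or more. In turn, 1749 members belonged to 1 CpG-poor gene, 176 to 2 and 14 to 3. Among the 7646 CpG-poor genes without a peak within 1 kb, 1583 (20.7%) had one within 10 kb, and the median distance to the nearest peak was 49696 bp.

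The share of genes with a peak rose with the promoter's CpG ratio within the CpG-poor class. A peak was found at 109 of the 2557 CpG-poor genes with a ratio under 0.2 (4.26%, 3.55 to 5.12%). It was found at 10.7% of the 3323 genes with a ratio of 0.2 to 0.4 and at 29.6% of the 2246 genes at 0.4 to 0.6. The remaining 1556 genes are CpG-poor by GC content alone, with a ratio of at least 0.6, and 909 of them (58.4%, 56.0 to 60.8%) had a peak. That is close to the 62.0% of CpG-rich genes, although the difference passed a two-sided Fisher's exact test (odds ratio 0.860, 0.772 to 0.958, p = 0.00673). This comparison was chosen after the values were seen. At a ratio of 0.7 to 0.8, genes with 45 to 55% GC had a peak in 58.4% of cases and genes with at least 55% GC in 58.6%. Below 45% GC, 6 of the 17 genes with this ratio had one (35.3%, 17.3 to 58.7%). Other bins differed in either direction. At 0.8 to 0.9 the shares were 71.7% at 45 to 55% GC and 66.1% above. At 0.4 to 0.5 they were 21.3% and 29.7%. At a ratio of 0.1 to 0.2 the shares were 3.29% below 45% GC, 5.41% at 45 to 55% and 7.48% above.

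**Figure D1:**
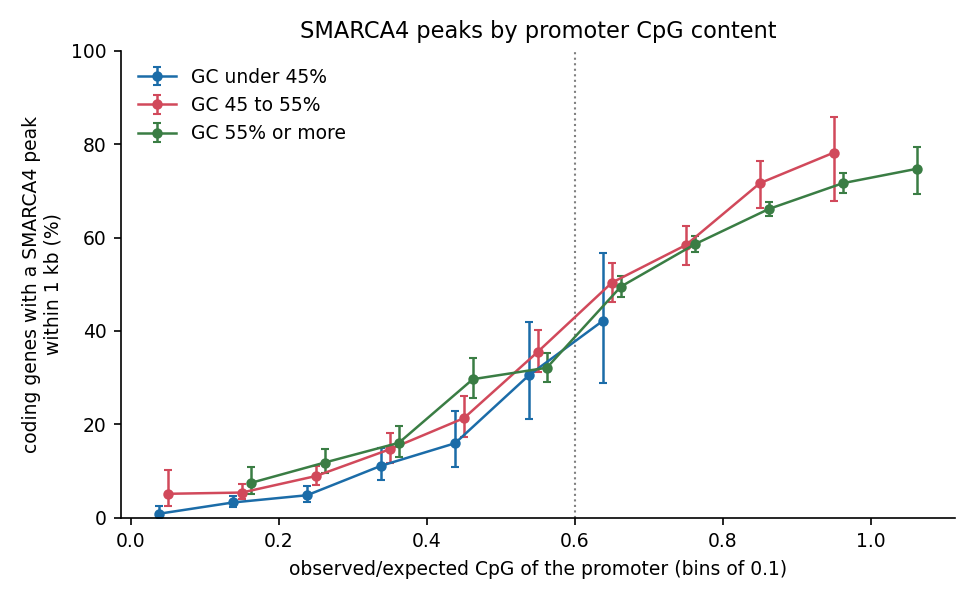
Share of coding genes with any SMARCA4 peak within 1 kb of the 5' end (%) against the promoter's observed/expected CpG ratio, in bins of 0.1 with at least 20 genes, for 3 classes of GC content. Points are shares, bars 95% Wilson intervals, and the dotted line the threshold of 0.6. The 3 curves rise together, from 0.877% in the lowest bin below 45% GC to 78.2% in the bin from 0.9 to 1 at 45 to 55% GC.

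Genes close to the thresholds on either side were compared without a test. Among genes with a ratio of at least 0.6, a peak was found at 63.2% of the 329 within 1 point below 55% GC and at 60.3% of the 363 within 1 point above. Among genes with at least 55% GC, it was found at 39.4% of the 221 within 0.02 below the ratio of 0.6 and at 45.8% of the 236 within 0.02 above. Genes with a peak next to the GC threshold included MAP4K4, GLA and CDK16 inside (54.9% GC, widest peaks 687, 509 and 305 bp) and POLR3B, TNPO3 and ZNF280C outside (55.045% GC, 1595, 967 and 505 bp). At the ratio of 0.6 they included SLC12A4, GRHPR and RGS9 inside (713, 686 and 340 bp) and F11R, B2M and SECISBP2L outside (1137, 448 and 409 bp). By their nearest gene, 842 members (43.4%) belonged to promoters short of the GC threshold only. A further 546 (28.2%) belonged to promoters short of the CpG ratio only, and 551 (28.4%) to promoters short of both.

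The gene's 5' end is the outermost start in the annotation, and it is not always the start most used. Of the 1734 member genes with an annotated canonical transcript, 393 (22.7%) have its start over 1 kb away, and 592 (34.1%) have a CpG-rich promoter there. Over all CpG-poor genes these shares were 25.6% and 20.9%. Counting every coding transcript, 673 members (34.7%) lay within 1 kb of a CpG-rich start. In the 400 bp around their centre, 917 members (47.3%) were CpG-rich by the thresholds used for promoters, and 1022 were not. The share was 84.8% at CpG-rich promoters, 5.11% in distal peaks and 34.99% over all peaks. This split was made after the data were seen. Both kinds are given side by side below for position, width and some of the motifs. Of the 917, 509 were among those 673 members.

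The kinds differed in where they lay. Peaks that were themselves CpG-rich had their centre a median of 282 bp downstream of the 5' end, and 75.6% were centred downstream. Peaks that were not had a median of -35.5 bp, upstream of the 5' end, and 43.6% were centred downstream of it. The direction is partly set by the rule, since other starts of a gene can only lie downstream of its outermost one. The canonical promoter was CpG-rich for 48.7% of the genes nearest to the first kind and 25.8% of those nearest to the second. Members covered a CpG-poor 5' end in 894 of 1939 cases (46.1%, 43.9 to 48.3%). Peaks at CpG-rich promoters covered theirs in 60.8% of 7396 cases, so members did so less often (odds ratio 0.551, 0.498 to 0.609, adjusted exact p = 7e-31, Fisher's exact test, two-sided, Benjamini-Hochberg over 8 tests of position and width). The size of this ratio depended on the choices made, as it was 0.311 after merging peaks at most 500 bp apart and 0.831 by canonical start. The kinds did not differ detectably here, with 45.04% and 47.1% (odds ratio 0.922, 0.771 to 1.10, adjusted exact p = 0.386).

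**Figure D2:**
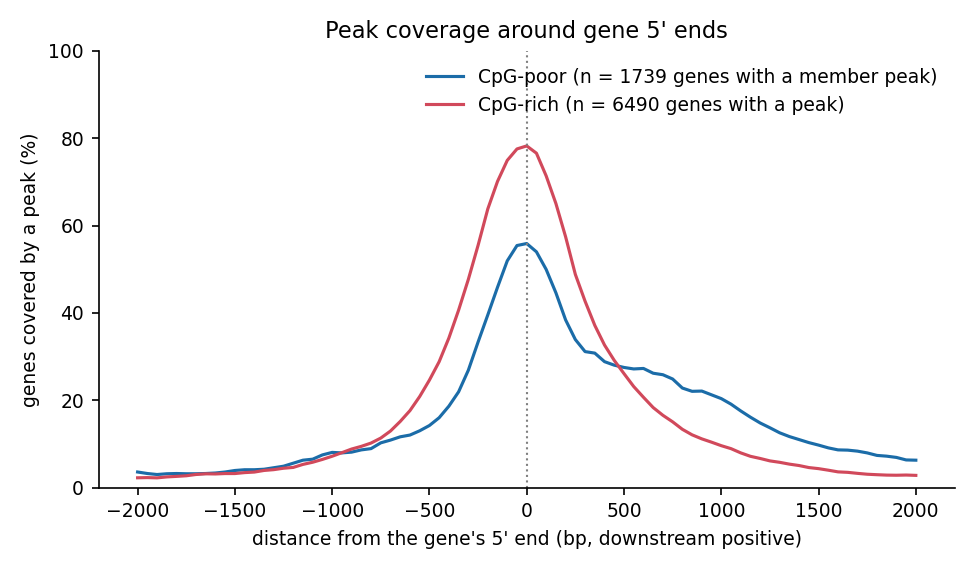
Share of genes covered by a peak (%) at each distance from the gene's 5' end (bp), for 1739 CpG-poor genes with a member peak and 6490 CpG-rich genes with a peak. CpG-poor genes reach 55.9% at the 5' end and still have 24.9% at 750 bp downstream but 10.3% at 750 bp upstream. CpG-rich genes reach 78.2% at the 5' end and have 15.1% and 11.4% at those distances.

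Member peaks had a median width of 401 bp (95% binomial interval of the median 386 to 418 bp), with quartiles at 246.5 and 657.5 bp. The median was 458 bp for members that were CpG-rich themselves and 354 bp for the others. It was 446 bp at CpG-rich promoters and 337 bp for distal peaks, which lie over 1 kb from every annotated transcript start. Widths of 1 kb or more occurred in 189 members (9.75%), 11.8% of CpG-rich promoter peaks and 3.22% of distal peaks. The odds ratio of members against distal peaks was 3.25 (2.72 to 3.88, adjusted exact p = 7.77e-33), and against CpG-rich promoter peaks 0.810 (0.686 to 0.956, adjusted exact p = 0.0202). Members under 200 bp made up 15.4%. This pooled share did not differ detectably from 14.4% at CpG-rich promoters (adjusted exact p = 0.319) or 17.0% of distal peaks (adjusted exact p = 0.122). It was 10.36% in the 917 members that were CpG-rich themselves and 19.96% in the 1022 that were not. The first lies below both comparison groups and the second above both, and these differences were not tested.

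Most of the genes with the widest members were histone genes, several of which shared a peak. The 12 CpG-poor genes with the widest member peaks shared 7 peaks, 8 of the genes encode replication-dependent histones, and 11 lie on chromosome 6. The widest member, 3480 bp, covered the start of MRPS18B, a mitochondrial ribosomal protein gene, and lay downstream of that of PPP1R10, which encodes a regulator of protein phosphatase 1. A peak of 3104 bp covered the starts of H2AC17, H2BC17 and H3C12, one of 3045 bp the starts of H3C2 and H2AC4, one of 2984 bp that of H2AC8 and one of 2756 bp that of H2AC7, also within 1 kb of H3C4. The other wide peaks were at YWHAZ (2846 bp), which encodes a 14-3-3 protein, and DDR1 (2819 bp), a collagen receptor gene. Their canonical starts, 1368 and 8098 bp away, are CpG-rich, and the wide peak at YWHAZ covers that start and not the outermost one. The canonical start of PPP1R10, 1369 bp away, lies inside the peak of 3480 bp. That of H3C12 is 2280 bp away, where the widest peak within 1 kb had 1151 bp.

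For most motifs searched, the share of members lay between those of CpG-rich promoter peaks and distal peaks. In their central 200 bp, 22.7% of members had the GATA motif, against 9.37% of CpG-rich promoter peaks (odds ratio 2.85, 2.50 to 3.25, adjusted exact p = 3.64e-50, Fisher's exact test, two-sided, Benjamini-Hochberg over 12 motifs) and 62.4% of distal peaks (odds ratio 0.177, 0.159 to 0.198, adjusted exact p = 3.97e-242). Of all peaks, 40.2% held it. Base composition differed as well, with a median GC content of these 200 bp of 60% in members, 69.5% at CpG-rich promoters and 46.5% in distal peaks. Within classes of 2 percentage points of GC, the Mantel-Haenszel odds ratios for GATA were 1.34 (1.15 to 1.55) and 0.409 (0.360 to 0.464).

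The other motifs mostly split the same way. The AP-1 motif (TGACTCA or TGAGTCA) was in 5.31% of members, 2.51% of CpG-rich promoter peaks and 19.3% of distal peaks. RUNX (TGTGGT) was in 7.99%, 5.21% and 15.3%. On the other side, the SP/KLF motif GGGCGG was in 40.3%, 61.5% and 9.72%, and the ETS motif CCGGAA in 18.1%, 19.3% and 3.69%. The CACC-box type bound by KLF1 (CCNCNCCC) was in 48.3%, 64.0% and 24.7%. The CTCF motif went the way of AP-1 and RUNX, with 1.6%, 0.771% and 2.92%. Within GC classes, members still exceeded distal peaks for ETS (odds ratio 2.95, 2.51 to 3.47) and SP/KLF (1.84, 1.61 to 2.1), whereas KLF1-type did not (1.03, 0.913 to 1.15). Against CpG-rich promoter peaks the intervals within GC classes included 1 for SP/KLF (0.929, 0.821 to 1.05), KLF1-type (1.04, 0.927 to 1.17) and RUNX (1.14, 0.929 to 1.39), so those differences were not detectable at equal GC. The E-box CAGCTG was in 13.98%, 10.4% and 16.1%, CCAAT in 20.01%, 17.6% and 19.98%, the octamer ATTTGCAT in 0.670%, 0.541% and 1.163%, and the cyclic AMP response motif TGACGTCA in 1.44%, 1.99% and 0.289%. Over all peaks the shares were 12.3% for AP-1, 11.2% for RUNX, 30.1% for SP/KLF, 9.89% for ETS, 40.7% for KLF1-type, 2.18% for CTCF, 14.1% for the E-box, 19.2% for CCAAT, 0.913% for the octamer and 0.941% for the cyclic AMP motif. Against CpG-rich promoter peaks ETS, the octamer and the cyclic AMP motif did not pass the test, and against distal peaks CCAAT and the octamer did not. These calls were sensitive to the choices made, since ETS, the octamer and CCAAT passed in some alternatives. CCAAT against CpG-rich promoter peaks and the E-box against distal peaks passed, but not in several others. Within GC classes CCAAT was less frequent in members than in CpG-rich promoter peaks (0.867, 0.757 to 0.992) and more frequent than in distal peaks (1.45, 1.27 to 1.66). Motifs with CpG or many guanines are partly fixed by the rule for promoters.

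G4 motifs, in which 4 stretches of 3 or more guanines stand 1 to 7 bases apart, differed in direction between the plain and the GC-stratified comparison. They were in 16.9% of members, 26.7% of CpG-rich promoter peaks, 4.68% of distal peaks and 13.5% of all peaks. Without regard to GC, members had fewer than CpG-rich promoter peaks (odds ratio 0.560, 0.492 to 0.637, adjusted exact p = 2.24e-19) and more than distal peaks (4.15, 3.59 to 4.78, adjusted exact p = 8.24e-73). Within GC classes the first ratio turned to 1.25 (1.07 to 1.45) and the second fell to 1.03 (0.873 to 1.22).

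The split of members by their own CpG content is read from the same bases as these motifs, so it sets part of the motif shares. A likeness of the 917 members to CpG-rich promoter peaks is therefore partly built in. Among the 917 that were CpG-rich themselves, 8.51% held GATA, 59.9% SP/KLF and 26.2% G4, beside 9.37%, 61.5% and 26.7% at CpG-rich promoters. Of 12 motifs, ETS alone passed the test between those groups, with 24.8% against 19.3% (odds ratio 1.38, 1.17 to 1.62, adjusted exact p = 0.00157; within GC classes 1.23, 1.04 to 1.44). CCAAT did not pass it (15.9% against 17.6%), but its odds ratio within GC classes was 0.795 (0.657 to 0.964). Among the 1022 that were not CpG-rich, 35.5% held GATA, 8.32% AP-1 and 10.3% RUNX. They still had GATA less often than distal peaks (odds ratio 0.332, 0.291 to 0.379, adjusted exact p = 8.77e-62; within GC classes 0.444, 0.385 to 0.512). ETS was at 12.04% against 3.69% (odds ratio 3.57, 2.90 to 4.39, adjusted exact p = 3e-26; within GC classes 2.70, 2.17 to 3.35). Leaving out members near a CpG-rich transcript start, the 858 that were left and not CpG-rich had GATA in 35.5% and ETS in 12.005%.

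**Figure D3:**
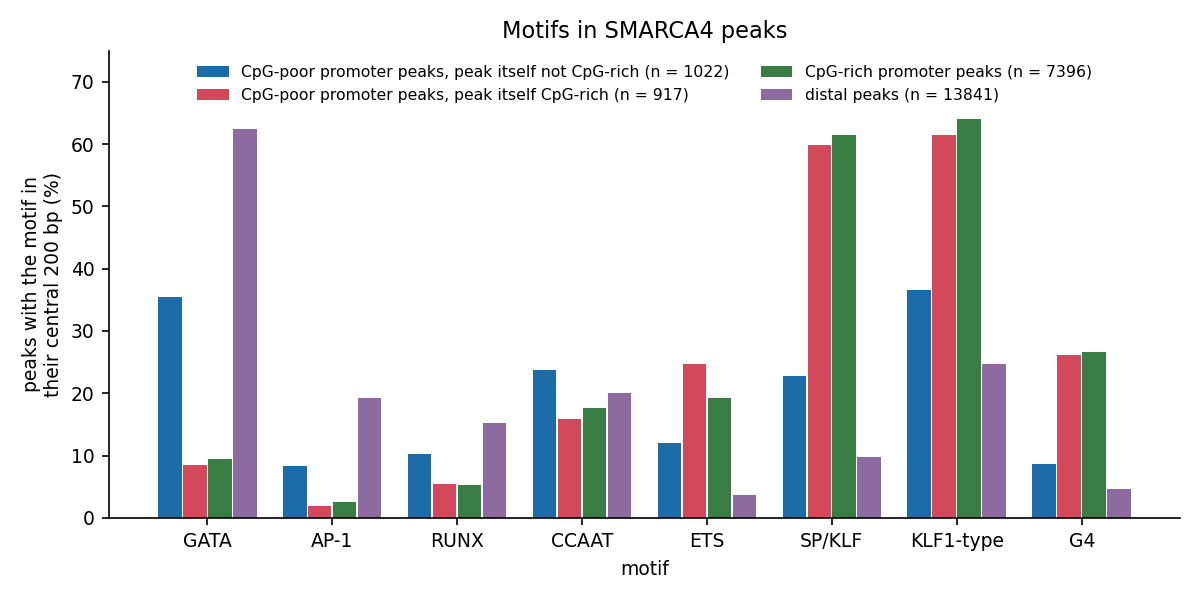
Share of peaks (%) with each motif in their central 200 bp, for CpG-poor promoter peaks split by their own CpG content (1022 not CpG-rich, 917 CpG-rich), 7396 CpG-rich promoter peaks and 13841 distal peaks. SP/KLF is in 59.9% of the CpG-rich members and 61.5% of the CpG-rich promoter peaks, a likeness that the split partly builds in. The others lie between these and distal peaks for GATA (35.5%, with 62.4% in distal peaks).

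The GATA share fell with the CpG ratio of the promoter up to 0.6 and no further. It was 55% in the 100 members whose nearest CpG-poor promoter had a ratio under 0.2, 31.1% at 0.2 to 0.4, 17.3% at 0.4 to 0.6 and 19.4% at 0.6 or more. The median GC content of the central 200 bp rose from 50.25% to 58% and 63.75% and was 58.5% in the last class. The AP-1 share was 18%, 9.54%, 5.08% and 2.138% in the same order, and the ETS share 3%, 9.26%, 17.8% and 23.9%. Median widths varied little, from 382 to 424 bp.

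Promoter motifs differed between CpG-poor genes with and without a peak, much less so at an equal CpG ratio. Over the 500 bp on either side of the 5' end, SP/KLF was in 68.5% of the 2036 promoters with a peak and 38.2% of the 7646 without (odds ratio 3.51, 3.17 to 3.90, adjusted exact p = 2.88e-131, Fisher's exact test, two-sided, Benjamini-Hochberg over 13 motifs). Over all coding promoters it was in 71.8%. ETS was in 41.8% and 18.5% (odds ratio 3.17, 2.85 to 3.52, adjusted exact p = 3.64e-98), and in 37.1% of all coding promoters. Within GC classes these ratios were 2.53 (2.25 to 2.85) and 2.40 (2.15 to 2.67). The KLF1-type motif was in 84.8% and 69.1%, and in 85.9% of all, with an odds ratio of 2.49 (2.19 to 2.84) that was 1.35 (1.163 to 1.56) within GC classes. The cyclic AMP response motif was rare but followed them, with 3.34% and 1.31% (odds ratio 2.61, 1.91 to 3.56, adjusted exact p = 1.78e-08) and 3.19% of all promoters. Several of these motifs contain CpG and were counted in the stretch whose CpG ratio the share of peaks rose with. Within joint classes of CpG ratio (0.1) and GC (5 points), chosen after the data were seen, the ratios shrank to 1.203 (1.05 to 1.38) for SP/KLF and 1.35 (1.196 to 1.53) for ETS. There they included 1 for KLF1-type (1.10, 0.934 to 1.30) and the cyclic AMP motif (1.159, 0.803 to 1.67).

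Over the 500 bp on either side of the 5' end, the GATA motif did not mark CpG-poor promoters with a peak. It was in 67.5% with and 72.8% without (odds ratio 0.774, 0.697 to 0.860, adjusted exact p = 4.03e-06), and within GC classes the ratio was 1.06 (0.950 to 1.19). It was in 53.9% of all coding promoters and in 71.7% of all CpG-poor ones. A motif this common over the stretch says little about single sites near the start. The E-box CAGCTG was lower with a peak, 43.3% against 47.4% (odds ratio 0.848, 0.768 to 0.936, adjusted exact p = 0.00152), and was in 44.2% of all. It did not pass the test with CpG-rich set at 50% GC (0.929) or by canonical start (0.894). RUNX was also lower, 40.3% against 46.7% (odds ratio 0.772, 0.699 to 0.853, adjusted exact p = 5.9e-07), and was in 35.3% of all. Within GC classes the ratios were 0.687 (0.620 to 0.761) for the E-box and 0.785 (0.708 to 0.870) for RUNX. G4 motifs were in 40.3% and 31.7% (odds ratio 1.46, 1.32 to 1.61, adjusted exact p = 8.78e-13) and in 54.9% of all, but within GC classes the ratio was 0.993 (0.883 to 1.12). Within the joint classes GATA (1.04, 0.913 to 1.18), the E-box (0.926, 0.826 to 1.04), RUNX (0.998, 0.890 to 1.12) and G4 (1.04, 0.917 to 1.19) did not differ detectably. AP-1 (14.9% and 15.9%), CCAAT (72.0% and 73.4%), the octamer (5.06% and 5.73%) and CTCF (2.75% and 2.46%) did not pass the test, and all coding promoters held them in 10.8%, 65.7%, 3.93% and 2.27%. Within the joint classes AP-1 was more frequent with a peak (1.38, 1.18 to 1.61), and with CpG-rich set at a ratio of 0.75 AP-1, CCAAT and the octamer were less frequent.

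TATA boxes were scarce among CpG-poor promoters with a peak. TATAAA lay 40 to 15 bp upstream on the gene's strand in 1.82% of promoters with a peak and 5.66% of those without (odds ratio 0.308, 0.220 to 0.433, adjusted exact p = 1.02e-14), and in 2.97% of all coding promoters. The ratio was 0.360 (0.255 to 0.508) within GC classes and 0.397 (0.266 to 0.592) within the joint classes. Of the 470 CpG-poor genes with this TATA box, 31 had a member peak, over the 5' end in 18, and 12 of these 18 were histone genes. The remaining ones were EVI5, TGFB2 (transforming growth factor beta 2), SRSF3 (a splicing factor, in a peak of 2567 bp), DEPP1, FURIN (the proprotein protease) and ZNF217. The canonical starts of EVI5 and ZNF217, 7296 and 16068 bp away, are CpG-rich.

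Erythroid gene lists had higher shares than the 18.0% of all CpG-poor genes with a member peak. The lists of globin, red cell membrane and heme or iron genes together held 27 CpG-poor genes, of which 18 had a member peak (66.7%, 47.8 to 81.4%). The 5 lists of other cell types (T and NK cell, B cell, liver, muscle, keratinocyte) held 96, of which 5 had one (5.21%, 2.24 to 11.6%). Genes of 1 list can share peaks and loci, and the lists were drawn up with earlier results of these data known, so the counts are a description.

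Red cell membrane and blood group genes had a member peak in 10 of 14 cases (71.4%, 45.4 to 88.3%), over the 5' end in 9. The 11 peaks had a median width of 635 bp, and 9 held GATA in their central 200 bp. EPB42 had 944 bp and RHAG 929 bp, with a second peak of 92 bp at RHAG. GYPE, KEL, GYPB and ART4 had 635, 452, 425 and 211 bp. Simulated 75-base reads cut from the 1 kb on either side of the start mapped to a single place in 57.7% of cases for GYPB and 64.1% for GYPE. SLC4A1, the band 3 anion exchanger, was the exception in position, with a peak of 990 bp centred 1356 bp downstream. TMOD1 (tropomodulin, 883 bp) is CpG-poor only at its outermost start, and its canonical start 486 bp away is CpG-rich. RHD, ACKR1, AQP1 and SLC14A1 had none, with 61.5% of reads mapping to a single place at RHD. The canonical start of SLC14A1, 37156 bp away, had a peak of 336 bp within 1 kb.

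Blood transcription factor genes had a member peak in 8 of 12 cases (66.7%, 39.1 to 86.2%), with a median width of 778 bp over 9 peaks. KLF1 had 2, of 975 bp over its start and 1878 bp downstream of it, the latter with a CpG ratio of 0.849 around its centre. LYL1, a basic helix-loop-helix factor, had 1243 bp, and GFI1B, a repressor in erythroid and megakaryocytic cells, had 928 bp, with a canonical start 34694 bp away. SPI1 (PU.1) had 778 bp, GATA1 had 644 bp ending upstream of its start, NFE2 had 538 bp, CEBPE 436 bp and LMO2 303 bp. GATA was in the centre of the peaks of SPI1 and GATA1 and of no others here. MEIS1, FLI1, RUNX1 and ERG had no member peak at these starts, and the nearest peak to that of FLI1 was 1208704 bp away. The canonical start of MEIS1, 1673 bp away, lay in a peak of 212 bp.

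Heme and iron genes had a member peak in 4 of 7 cases (57.1%, 25.05 to 84.2%). PPOX, the penultimate enzyme of heme synthesis, had 1428 bp, and SLC25A38, the mitochondrial glycine carrier, had 739 and 524 bp. TFR2 (transferrin receptor 2) had 661 bp and SLC11A2 (the iron transporter DMT1) 236 bp. ALAS2, the erythroid enzyme that starts heme synthesis, had no peak within 1 kb, and its nearest was 2545 bp away. AHSP, which encodes the chaperone of alpha globin, had its nearest at 7850 bp, and HMOX1 at 3011 bp.

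Globin genes need care, since their outermost annotated starts are often distant. By the rule, 4 of 6 CpG-poor globin genes had a member peak (66.7%, 30.0 to 90.3%). HBE1 and HBG2 owe theirs, of 607, 490 and 212 bp, to starts 235707 and 250824 bp from their canonical ones, and share those peaks with the olfactory receptor gene OR51B5. At its canonical start HBG2 had a peak of 203 bp within 1 kb, and HBE1 had none, with the nearest 5659 bp away. HBG1, the other fetal gamma globin gene, had a peak of 219 bp centred 374 bp upstream, and HBZ, the embryonic zeta globin gene, had one of 525 bp but its canonical start is 9916 bp away. Only 62.8% of simulated reads around the start of HBG1 mapped to a single place. The adult genes HBB and HBD had no member peak. By canonical starts the count was 3 of 6, and HBD then had a peak of 274 bp within 1 kb. By those starts, chosen after the data were seen, red cell membrane genes counted 11 of 16, blood transcription factor genes 8 of 11, and heme and iron genes 2 of 6, since PPOX and SLC11A2 are CpG-rich there. All CpG-poor genes by canonical start, 7904, had a member peak in 16.6%.

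**Figure D4:**
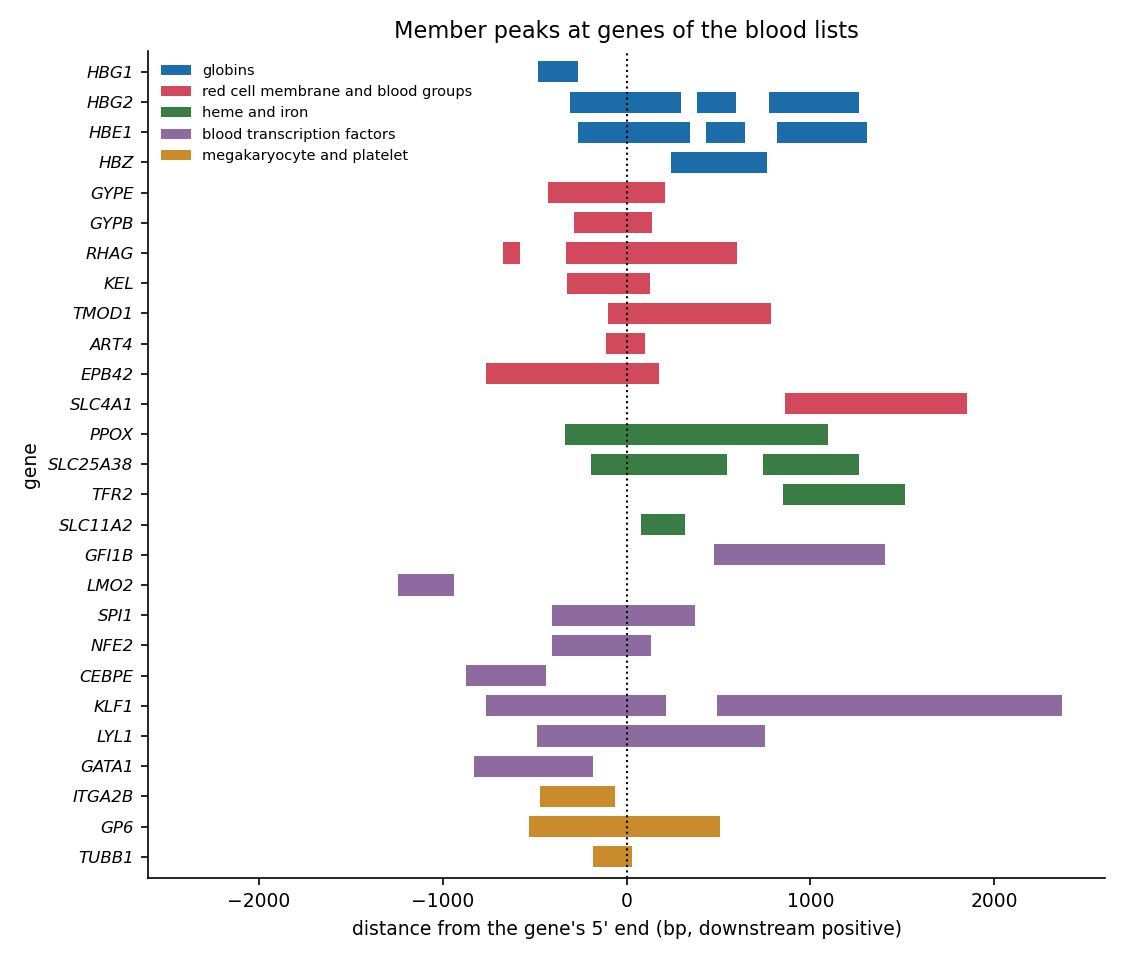
Member peaks (bars) by distance from the gene's 5' end (bp, downstream positive) at genes named from 5 blood lists, coloured by list. Peaks of the red cell membrane genes shown include one over the 5' end except at SLC4A1, and RHAG has a further narrow peak upstream. The other lists include peaks wholly to one side, as at LMO2 and GATA1 upstream and TFR2 downstream.

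Other blood and tissue lists were near or below the background. Megakaryocyte and platelet genes had a member peak in 3 of 17 cases (17.6%, 6.19 to 41.0%), at ITGA2B (408 bp), the platelet integrin, GP6 (1037 bp), the collagen receptor, and TUBB1 (213 bp). All 3 genes had under 95% uniquely mapping reads, and of the 11 list genes at or above it 0 had a member peak. Myeloid genes had one in 3 of 24 (12.5%), all away from the 5' end, at PRTN3 (348 bp), ELANE (235 bp) and CD33 (377 bp). Interferon response genes had 3 of 18 (16.7%), at IFI6, IRF9 and IFIT3, and cytokines and chemokines 2 of 22 (9.09%), at IL6 and CSF1. Liver genes had 2 of 23 (8.70%), at TF (transferrin) and CYP2E1. The B cell list had 1 of 13 (TNFRSF17, 123 bp), T and NK cell genes 1 of 24, and muscle genes 1 of 18 (TNNI3, 950 bp, centred 1367 bp upstream). Keratinocyte genes had 0 of 18, which allows a share of up to 16.7%. Among uniquely mapping genes the counts were 1 of 12 for the myeloid and for the interferon list and 0 of 9 for the B cell list.

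**Figure D5:**
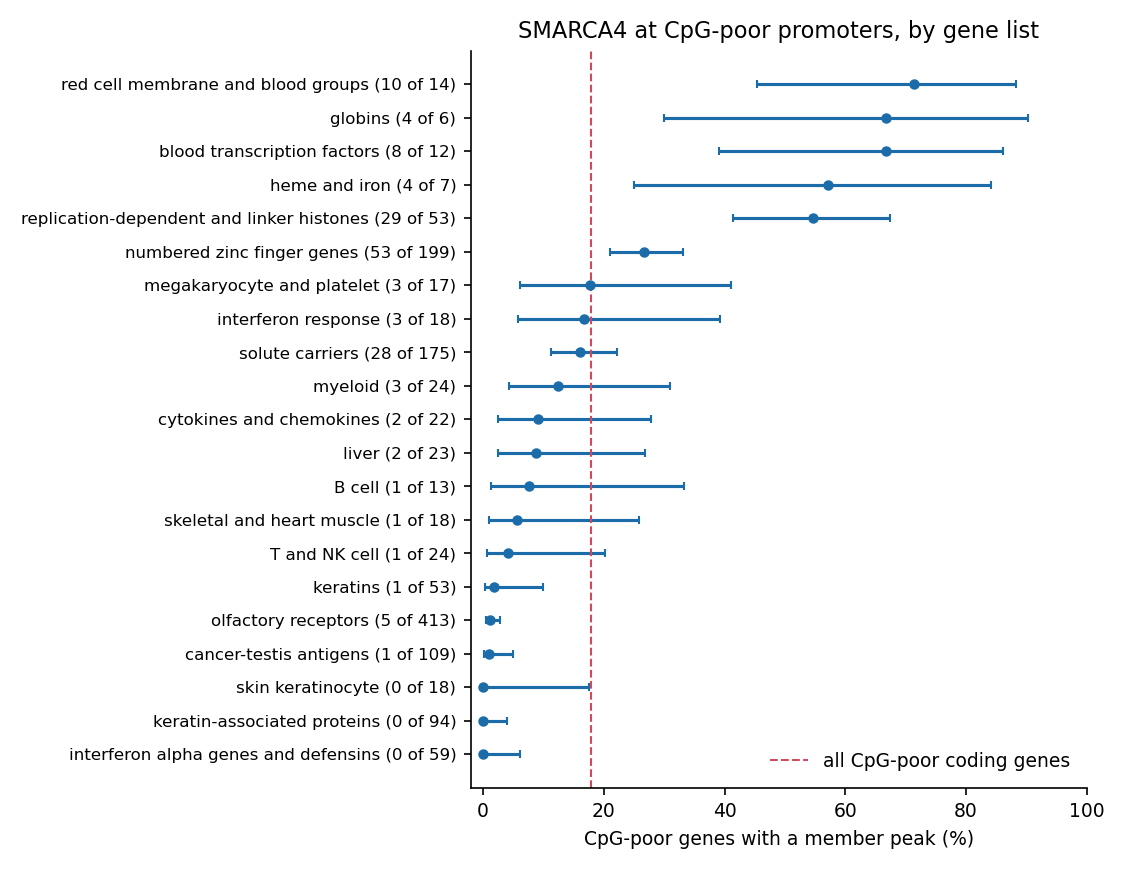
Share of CpG-poor genes with a member peak (%) in each gene list, with 95% Wilson intervals and the counts beside the names. The dashed line is the share over all CpG-poor coding genes, 18.0%. Red cell, globin, blood transcription factor, heme and histone lists lie at 54.7% or more, and olfactory receptors, cancer-testis antigens and keratin-associated proteins below 2%. The line takes no account of the CpG ratio. Among genes CpG-poor by GC content alone, as the named histone genes are, the share was 48.8%.

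Large gene families also spread widely. Histone genes had a member peak in 29 of 53 CpG-poor cases (54.7%, 41.5 to 67.3%), over the 5' end in 28, with a median width of 804 bp over 30 peaks. The histone genes named above are CpG-poor by GC content alone. Of all 1556 genes of that kind, 48.8% had a member peak, so the histone share lies near theirs. Numbered zinc finger genes had 53 of 199 (26.6%, 21.0 to 33.2%) and solute carriers 28 of 175 (16.0%, 11.3 to 22.2%). Olfactory receptor genes had 5 of 413 (1.21%, 0.518 to 2.80%), namely OR51T1, OR51B5, OR2AT4, OR8G2P and OR1F1. Of keratin genes KRT3 alone had one (1 of 53), and of cancer-testis antigen genes PRAME alone (1 of 109), where 1446 bp covered the start of this melanoma antigen gene. Keratin-associated protein genes had 0 of 94 and interferon alpha and defensin genes 0 of 59, which allow up to 3.19% and 5.08%. Whether these loci are intact in K562 cells was not tested. Repeated sequence was common in some families, where 26 of the 109 cancer-testis and 296 of the 413 olfactory receptor genes had at least 95% uniquely mapping reads. Among all 7045 CpG-poor genes that met this, 19.6% had a member peak, and among the 296 olfactory receptor genes 4 did. For cancer-testis antigens the count was 1 of 26 (3.85%, 0.682 to 18.9%). The absences then rest on 53 keratin-associated protein genes and 25 interferon alpha and defensin genes, which allow up to 5.66% and 12%.

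Chromosomes differed in the share of CpG-poor genes with a member peak, with gains and losses of DNA in this line not examined. It was 26.3% of 537 on chromosome 6, which holds the histone clusters, 27.7% of 271 on chromosome 15, 11.0% of 346 on chromosome 9 and 8.27% of 520 on the X chromosome. Chromosome 1 held the most members, 235, followed by chromosome 19 with 177.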

How the data were processed

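The authors trimmed reads (cutadapt 1.16), aligned them to hg19 (BWA 0.7.15), removed duplicates, and ran MACS2 2.1.1 on each replicate against input with a q-value threshold of 0.05. The deposited table holds chromosome, start and end of each merged region in bp, with no score and no column per sample. Coordinates are given counted from 1.

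Peaks were compared with the hg19 sequence and GENCODE 44 lifted to the same build, using Python 3.11.15, numpy 2.4.6, scipy 1.17.1, pysam 0.24.0 and matplotlib 3.10.9. Of 20162 coding genes, 18 with undefined sequence were left out. Overlap meant at least 1 bp. Motifs were searched on both strands (TATAAA on the gene's strand). Tests were two-sided Fisher's exact tests with Woolf intervals, Mantel-Haenszel ratios over GC classes of 2 percentage points, and Wilson intervals, which cover counting error only (for a count of 0, the share allowed is 3 counts of the total); regions and genes are not independent replicates. Unique mapping was measured with minimap2 2.31 on reads of 75 bases cut every 25 bases, at mapping quality of at least 10. The code was tested on simulated data.

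Members and gene lists were chosen with earlier results of these data known. Named genes are some list genes with a member peak or a defining absence, the 12 with the widest member peaks, those with printed promoters, and those at the thresholds. Genes with a TATA box under a peak and family members named where counts are small were chosen after their values were seen. Alternatives were narrower peaks removed, neighbouring peaks merged, autosomes only, other windows, thresholds and starts, uniquely mapping genes, and other motif windows.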

Additional observations from a re-analysis of the deposited data

How the results depend on the processing

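No paired analysis was possible because one list merges the libraries, and no library could be left out for the same reason. Of 534 alternative values, 457 kept their direction and side of the threshold, or stayed within 1.5 times (counts) or within the Wilson interval (shares). In every alternative that recomputed them, CpG-poor genes had a peak less often than CpG-rich genes, and members held GATA more often than CpG-rich promoter peaks and less often than distal peaks. For the changes below the cause was not tested.

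The share of CpG-poor genes with a peak was 19.3% with peaks of at least 200 bp, 17.6% within 500 bp, 24.1% within 2 kb, 19.4% by peak midpoint, 29.0% with CpG-rich set at a ratio of 0.75, 15.8% with it set at 50% GC, 23.2% for uniquely mapping genes and 18.5% by canonical start. The share of members covering a 5' end was 51.6% with peaks of at least 200 bp, 55.6% after merging, 58.1% within 500 bp, 36.3% within 2 kb, 50.6% by midpoint, 52.5% at the ratio of 0.75, 40.1% at 50% GC and 56.8% by canonical start. Members numbered 3729 at the ratio of 0.75 and 1022 without those CpG-rich themselves. With starts of every coding transcript they numbered 2123, of which 1206 were members before. The canonical start, the split by own CpG content and the joint classes of CpG ratio and GC were chosen after seeing the data.

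Odds ratios that crossed 1 against distal peaks were those of CCAAT (0.988 with peaks of at least 200 bp, 0.994 by midpoint, 0.968 at the ratio of 0.75, 0.966 at 50% GC) and the E-box (1.01 at 50% GC, 1.10 in whole peaks). Against CpG-rich promoter peaks they were those of ETS (1.08 at the ratio of 0.75, 1.05 by canonical start) and the octamer (0.772 at the ratio of 0.75, 0.874 for uniquely mapping genes). Between promoters they were those of AP-1 (1.06 at 50% GC) and the octamer (1.02 within 250 bp). Within GC classes, the ratios against CpG-rich promoter peaks crossed to 1.06 for ETS, 0.867 for CCAAT, 1.04 for KLF1-type, 0.996 for the octamer and 1.25 for G4, and G4 against distal peaks fell to 1.03. Between promoters they crossed to 1.06 for GATA, 1.07 for CCAAT, 0.945 for CTCF, 1.07 for the octamer and 0.993 for G4. Some differences kept their direction but no longer passed. They were CCAAT against CpG-rich promoter peaks (1.14 with peaks of at least 200 bp, 1.15 within 500 bp, 1.11 at 50% GC) and the E-box against distal peaks (0.866 with peaks of at least 200 bp, 0.908 within 500 bp, 0.937 without members CpG-rich themselves). CTCF against distal peaks was 0.698 without those members. Within GC classes, intervals came to include 1 for SP/KLF (0.929) and RUNX (1.14) against CpG-rich promoter peaks. The same held for KLF1-type against distal peaks (1.03). Between promoters the E-box (0.929 at 50% GC, 0.894 by canonical start) did so too. Within joint classes of CpG ratio and GC, AP-1 crossed to 1.38, GATA to 1.04 and CCAAT to 1.04, and KLF1-type (1.10), RUNX (0.998), the cyclic AMP motif (1.159), the E-box (0.926) and G4 (1.04) no longer passed.

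Other differences passed only in alternatives. Against CpG-rich promoter peaks they were ETS (0.877 within 2 kb, 0.717 at 50% GC, 0.833 in whole peaks, 0.574 without members CpG-rich themselves) and the octamer (1.59 in whole peaks). Against distal peaks they were the octamer (0.539 on autosomes, 0.525 by midpoint, 0.412 at the ratio of 0.75, 0.434 for uniquely mapping genes) and CCAAT (1.14 in whole peaks, 1.24 without members CpG-rich themselves). Between promoters they were AP-1 (0.808), CCAAT (0.868) and the octamer (0.706) at the ratio of 0.75, and CCAAT (0.851) at 50% GC. Depth, replicate spread and peak height cannot be judged from this list.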
